A study of Saccharomyces cerevisiae with 76 samples.

Results

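Abf1 binding before depletion was examined at 7 genes, those of the general regulatory factors Abf1, Rap1, Reb1, Cbf1, Tbf1 and Mcm1 and SPT15, the gene of TATA-binding protein (TBP). They were chosen by name, for what their proteins do, from the 6002 protein-coding ORFs of the nuclear genome. A binding peak was assigned to a gene when its summit lay inside the ORF or at most 1000 bp upstream of the start codon. Of the 948 summits of the peak list, 1 lay at these genes, upstream of REB1, and the other 6 genes had no listed summit.

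General regulatory factors are abundant DNA-binding proteins of budding yeast. They bind short, well defined motifs in promoters, keep nucleosomes away from the DNA beside them and in this way help other factors and the transcription machinery to reach promoters. TBP binds the TATA element and nucleates the assembly of initiation complexes, and it serves all of the nuclear RNA polymerases. Abf1 recognises a partly degenerate motif whose fixed arms, one starting with TC after a purine and one reading ACG, are separated by bases that may vary.

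The study followed the release of Abf1 from DNA by ChIP-seq in 76 samples, each an immunoprecipitation or an input, from a strain with Abf1 on the anchor-away system before depletion and at 10 time points of rapamycin treatment, and of an untagged strain. The values used here come from that strain at 0 min, with 3 immunoprecipitations and 3 inputs. These cells were BY4742 MATalpha carrying tor1-1, fpr1del, RPL13A-FKBP12-NAT and Abf1-FRB-yEGFP-3V5-hphMX4, and they had received DMSO without rapamycin for 90 min before ChIP with an anti-V5 antibody. The tor1-1 allele, the fpr1 deletion and the RPL13A-FKBP12 anchor are also present in the untagged strain, so every cell of the series carries them. By this genotype ABF1, one of the genes described here, is itself the gene that carries the tag. The later time points and the untagged strain were not analysed here.

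The authors called the peaks on the 3 replicates together, so each peak has 1 pooled value and no spread between replicates. No test was therefore made between genes. The 95% intervals given for fragments and fold enrichments are exact Poisson intervals of the immunoprecipitated fragments, with the background taken as fixed. They cover that counting error only. Signal is a fold enrichment, in which the fragments that cover a summit are divided by the background that the peak caller set there. The inputs served as control. The background was not a local input value everywhere, since summits on different chromosomes shared a value near 125 fragments. Over all 948 peaks the fold enrichment ran from 2.00 to 68.2 with a median of 3.52. A peak entered the list at a fold enrichment of at least 2 and a q-value under 0.001. The background at the summits was 125 to 211 fragments, so a fold enrichment of 2 corresponded to about 250 fragments at the lowest, 282 at the median and 424 at the highest background. A gene without a listed summit is therefore one where enrichment did not pass these limits, not one shown to be unbound. All windows of 57 bases in the 7 regions were unique in the genome, between 1667 windows for SPT15 and 3428 for RAP1, so filtering for uniquely mapping reads leaves no hole in them at that length.

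The sequences below carry the results that follow. They are from the plus strand of the S288C reference R64 (sacCer3) unless another strand is given, and capitals mark matches to the Abf1 consensus. At REB1, chrII:337412-337612 is the summit with 100 bp on each side, in which a pair of consensus matches on opposite strands overlaps. The second REB1 sequence, chrII:336364-336406, holds another overlapping pair inside the REB1 ORF, with no summit. At ABF1, chrXI:226220-226279 holds the best match upstream of the start codon, also with no summit.
REB1 peak: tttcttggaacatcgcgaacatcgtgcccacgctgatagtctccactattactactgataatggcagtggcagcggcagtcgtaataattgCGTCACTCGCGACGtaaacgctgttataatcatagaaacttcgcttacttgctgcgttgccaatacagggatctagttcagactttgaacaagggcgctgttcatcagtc
REB1 ORF pair: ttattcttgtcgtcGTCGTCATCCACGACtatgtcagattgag
ABF1 promoter: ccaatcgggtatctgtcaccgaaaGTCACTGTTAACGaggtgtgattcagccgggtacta

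The ChIP signal of Abf1 was enriched 3.02-fold (95% interval 2.74 to 3.32) upstream of REB1. This gene encodes a Myb-type factor that acts at promoters and in the termination of transcription. REB1 (YBR049C) lies on the minus strand of chromosome II at 334386 to 336818. The peak spanned 337372 to 337679, which is 308 bp, and its summit at 337512 was 694 bp upstream of the start codon. At the summit 430 fragments (interval 390 to 473) stood over a background of 142, with a −log10 p-value of 84.1 and a −log10 q-value of 82.3. The REB1 peak ranked 596 of 948 by fold enrichment, with 37.1% of the peaks below it and a value under the median of the list.

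Having a peak was not a frequent feature of these genes. 1 of 7 had a summit by the rule, where 19.4% of all ORFs did. None of the 7 had a summit with a fold enrichment of 4 or more, where 9.88% of all ORFs had one. With 7 genes, either count moves by a large share when 1 gene changes, and neither is read as a difference from other ORFs.

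**Figure D1:**
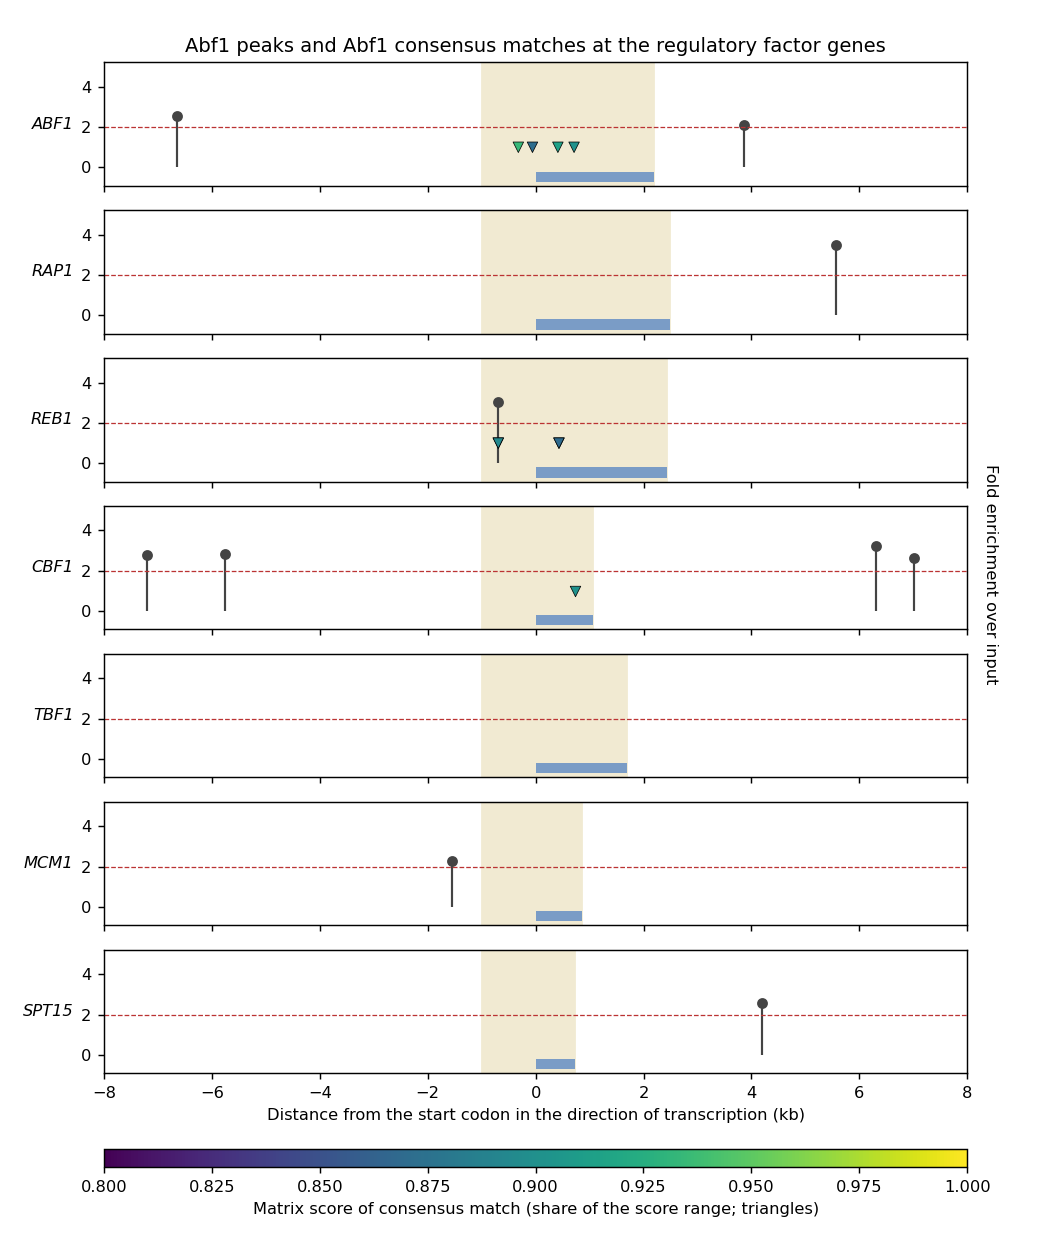
Abf1 peaks (grey stems, fold enrichment over input on the y axis) and Abf1 consensus matches (triangles, coloured by matrix score and drawn at a fixed height) around each gene, by distance from the start codon in kb along the direction of transcription. The blue bar is the ORF, the shaded area is the ORF with 1000 bp upstream and the dashed line is the fold enrichment of 2 that a listed peak needed; the REB1 peak is the single stem in a shaded area, and the 4 matches at ABF1 have none.

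**Figure D2:**
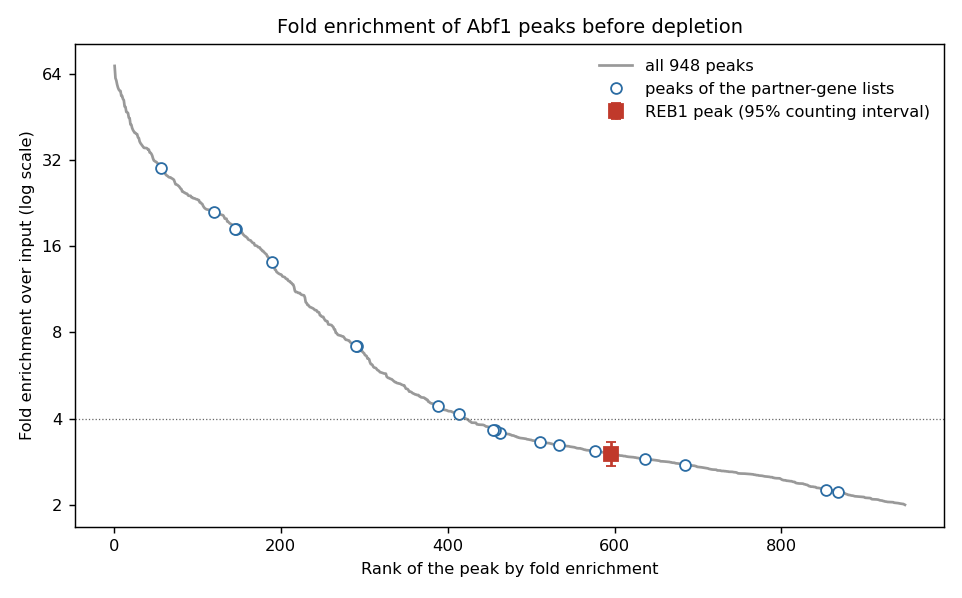
Fold enrichment (y axis, log scale) of all 948 peaks by rank (grey line), of the peaks at genes of partner proteins (open circles) and of the REB1 peak (red square with its 95% counting interval). The dotted line is a fold enrichment of 4; the REB1 peak, at 3.02, is below it at rank 596.

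The summit upstream of REB1 was inside another ORF. It lay at position 688 of the 1017 bp of REG2, which encodes a regulatory subunit of the protein phosphatase Glc7 and is transcribed in the same direction as REB1 from 337183 to 338199 on the minus strand. REG2 therefore takes the same peak by the same rule. The summit was 329 bp inside the end of REG2 that faces REB1. Summits inside ORFs were 143 of the 948, and their fold enrichment had a median of 3.16 and a range of 2.01 to 42.5. The REB1 peak was slightly under that median, with 75 of the 143 above it. For their off-rates the authors left out all summits below 4-fold. They state that this cut also removes weak apparent signal over ORFs and tRNA genes, which they describe as a ChIP artefact. The REB1 peak, at 3.02 and inside REG2, is below that cut. Whether its signal depends on the tag was not tested.

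The consensus pair under the REB1 peak was almost exactly at the summit. The plus-strand match has its midpoint at 337510, 692 bp upstream of the REB1 start codon and 2 bp from the summit. The minus-strand match has its midpoint at 337509, 691 bp upstream. To grade matches, each was scored with a matrix built from 403 sequences under peaks whose fold enrichment was at least 4, as a share of the range the matrix allows. The plus-strand match of the REB1 peak reached 0.894 and the minus-strand match 0.833. None of the genes' own matches contributed to the matrix, but a matrix from peaks favours bound sequences, so its scores are no independent evidence of binding.

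A consensus match was frequent among peaks, at 58.9% of them (558 peaks), where 2.64% of all windows of that length in the genome held one. Peaks with a match had a median fold enrichment of 6.63, and 443 of the 558 were above the REB1 peak. Under a fold enrichment of 4, 187 of 527 peaks had a match, so the REB1 peak is one of a minority of weak peaks with a match. Inside ORFs, 77 of 143 summits (53.8%) had one, with a median fold enrichment of 4.96. No match to the motifs of Rap1, Reb1, Cbf1, Tbf1 or Mcm1 or to TATAAA was found within 100 bp of the REB1 summit.

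Overlapping consensus matches on opposite strands, with midpoints at most 2 bp apart, occurred as 29 pairs in the genome, and 15 of the pairs had a summit within 100 bp. REB1 has 1 pair at its peak and 1 in its ORF. The ORF pair, at positions 435 (plus strand of the chromosome, score 0.915) and 433 (minus strand, score 0.869) of the coding sequence, was 1128 and 1126 bp from the nearest summit. Of the 29 pairs, 16 were inside ORFs and 8 of these had a summit. A pair with a summit and a pair without one were thus about equally frequent, and REB1 held one of each.

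ABF1, the gene of the immunoprecipitated factor itself, held 4 matches to the factor's own consensus and had no listed peak. ABF1 (YKL112W) lies on the plus strand of chromosome XI at 226570 to 228765. The match in its promoter has its midpoint at 226250, 320 bp upstream of the start codon, and scored 0.934, above 68.7% of the 1785 consensus matches of the genome. A second match, 58 bp upstream on the minus strand, scored 0.871. A further pair was on the minus strand inside the ORF, at position 414 with a score of 0.915 and at position 714 with a score of 0.902. All 4 were far from the nearest summit, between 3156 bp for the match at position 714 and 4189 bp for the promoter match.

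The promoter match of ABF1 belongs to a class in which summits were common. Matches of the genome were divided by score, by location inside or outside ORFs, and by the base 8 bp before the midpoint, which is A in the ABF1 match. The study states that Abf1 is cross-linked efficiently only where that base is G or C. It also reports that signals at sites with another base did not fall during depletion. It gives rebinding of cytosolic Abf1 during ChIP as their likely cause, and such sites were left out of its analyses. A share of matches with a summit is therefore no measure of occupancy where the base is A or T. Whether Abf1 occupies the ABF1 match was not tested. Of the 257 matches outside ORFs with A or T at that base and a score of 0.925 to 0.95, 120 had a summit within 100 bp, or 46.7% (95% Wilson interval 40.7 to 52.8). Those 120 had a median fold enrichment of 3.31, with a range of 2.03 to 35.1. The ABF1 match is thus one of the 137 without a summit, in a class where having one or lacking one was about equally frequent. With G or C at that base, 75 of 77 matches of the same score outside ORFs had a summit (97.4%).

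The other matches of ABF1 were in classes where summits were rare. Of the 17 matches outside ORFs with G or C at the base 8 bp before the midpoint and a score of 0.85 to 0.875, as for the match 58 bp upstream, 2 had a summit (11.8%). For both ORF matches the class was 133 matches inside ORFs with A or T and a score of 0.9 to 0.925, of which 11 had a summit (8.27%). The plus-strand match at the REB1 peak has G at that base, and in its class, inside ORFs and with a score of 0.875 to 0.9, 12 of 89 matches (13.5%) had a summit. The fold enrichments at those 12 had a median of 3.76 and a range of 2.20 to 24.7, so the 3.02 of the REB1 peak is in the lower part of them. The REB1 match in the ORF with the higher score has T at that base and shares the class of the ABF1 ORF matches, while no summit was near any of the 67 matches in the class of its partner, which allows a share of up to 5.42% by the Wilson interval.

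**Figure D3:**
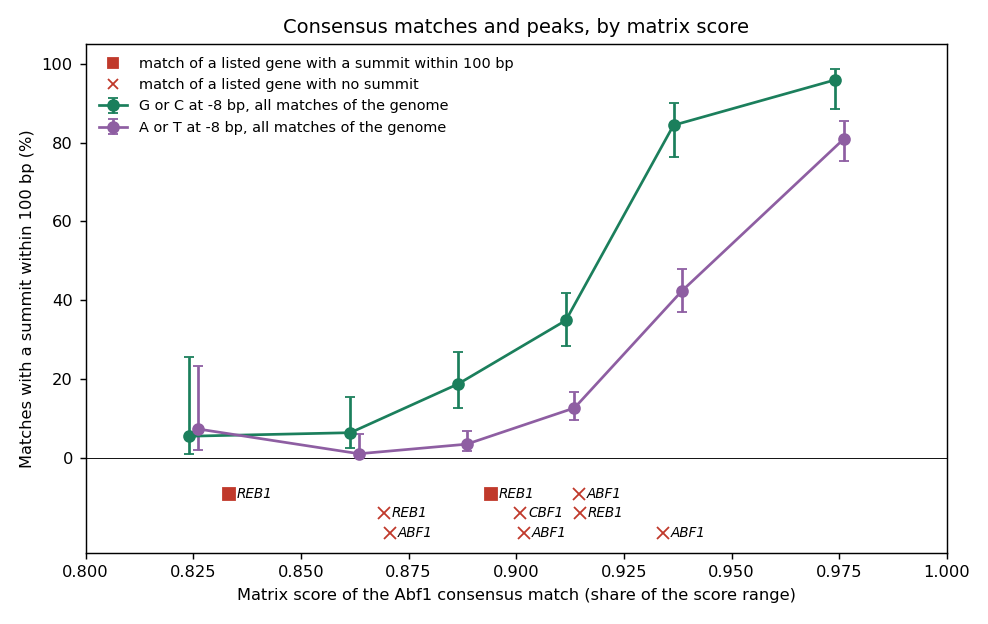
Share of the genome's Abf1 consensus matches with a summit within 100 bp (y axis, %, with 95% Wilson intervals) by matrix score (x axis), for matches with G or C and with A or T at the base 8 bp before the midpoint, inside and outside ORFs together. Red marks under the zero line give the scores of the 9 matches of the listed genes: squares are the 2 REB1 matches with a summit and crosses are the 7 without one, of which the ABF1 promoter match at 0.934 is farthest to the right.

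Over the genome 623 of the 1785 matches (34.9%) had a summit within 100 bp. Outside ORFs the share was 51.1% of 1034 and inside ORFs 12.6% of 751. The genes described here held 9 of the matches, 4 at ABF1, 4 at REB1 and 1 at CBF1, and the 2 with a summit were the overlapping pair of the REB1 peak. In the 1000 bp upstream of the start codon, 2 of 7 genes had a consensus match, ABF1 and REB1, where 24.4% of 5996 upstream regions had one.

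The ABF1 promoter also held weaker resemblances to the consensus, which were counted after its matches had been seen. At a score of at least 0.85, 7 matches to the matrix stood in the 1000 bp upstream of ABF1, within a span of 309 bp. They are given here in order towards the start codon, with their distance from it, on the strand that matches, and with the positions of the consensus in capitals. The matches at 320 and 58 bp keep the consensus and the other 5 depart from it at 1 position.
ABF1 367 bp upstream, plus strand, score 0.852: ttctATCATAACTTACCagcc
ABF1 320 bp upstream, plus strand, score 0.934: gaaaGTCACTGTTAACGaggt
ABF1 255 bp upstream, minus strand, score 0.862: acttTTCGTTTTTCACGaaaa
ABF1 223 bp upstream, plus strand, score 0.882: ttatATCACTTTCTACTtctt
ABF1 167 bp upstream, plus strand, score 0.886: ccacATCCCCATTAACGaaag
ABF1 138 bp upstream, plus strand, score 0.882: gtgtGTCATTTAATACTacgg
ABF1 58 bp upstream, minus strand, score 0.871: caggATCACAGATAACGtgta

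Upstream regions of ORFs held a median of 1 such match and at most 8, and 5 of 5996 (0.0834%) had 7 or more. Of the 7 genes described here ABF1 was the 1 in this group. The other 4, named after their values were seen, were RAD27, QCR6, YCL019W and YCL020W. RAD27 encodes a flap endonuclease of DNA replication and is transcribed divergently from ABF1, with 694 bp between their start codons, so its upstream region takes in the ABF1 matches. YCL019W and YCL020W begin at the same base and share their upstream region. Whether reads map uniquely in that region was not checked, so its lack of a listed peak is not read further. QCR6, the gene of a subunit of the respiratory chain's cytochrome bc1 complex, was the 1 of the 5 with a peak upstream, at a fold enrichment of 21.0, and this summit is inside the neighbouring ORF of PHO4. Across all ORFs the share with a peak upstream was 4.81% of 2934 regions without a match, 21.3% of 1993 with 1, 42.4% with 2, 58.8% with 3 and 70.2% with 4. Beyond that the regions were few and the shares lower, with a peak at 6 of 13 regions with 5 matches (46.2%) and at 0 of 1 with 6. ABF1 and RAD27 thus had many matches and no listed peak. Since the matrix was built from strong peaks, these shares describe the peak list and test nothing.

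CBF1, the gene of a basic helix-loop-helix factor of centromeres and of sulphur amino acid genes, held 1 consensus match. CBF1 (YJR060W) lies on the plus strand of chromosome X at 548759 to 549814. The match is on the minus strand at position 735 of the ORF, scored 0.901 with A at the base 8 bp before the midpoint, and was 5571 bp from the nearest summit. It is of the class in which 8.27% of 133 matches had a summit.

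RAP1, TBF1, MCM1 and SPT15 held no consensus match in the ORF or in the 1000 bp upstream. Rap1 binds telomeres and the promoters of ribosomal protein and glycolytic genes, Tbf1 binds subtelomeric repeats and the promoters of small nucleolar RNA genes, and Mcm1 is a MADS-box factor of mating type and cell cycle genes. RAP1 (YNL216W) is at 241689 to 244172 on the plus strand of chromosome XIV, TBF1 (YPL128C) at 306533 to 308221 on the minus strand of chromosome XVI, MCM1 (YMR043W) at 353871 to 354731 on the plus strand of chromosome XIII and SPT15 (YER148W) at 465303 to 466025 on the plus strand of chromosome V. The best-scoring stretch upstream of each of these genes and of CBF1 departs from the consensus at 1 position, and is printed here on the strand that matches to show how near to the motif these promoters come. SPT15 was the closest, at 0.907, above the score of 0.894 under the REB1 peak. RAP1 was the farthest, at 0.812.
RAP1 435 bp upstream, minus strand: taatATCGTACTTCACTttca
CBF1 705 bp upstream, plus strand, score 0.840: acctATCACTCAAATCGgaaa
TBF1 605 bp upstream, plus strand, score 0.851: gataTTCACTTTTTACGtgga
MCM1 331 bp upstream, plus strand, score 0.838: gtaaATCATTTTCTAAGtatt
SPT15 328 bp upstream, minus strand: gaagATAACTATTTACGgctt

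Measured from the start codon, the nearest summit in either direction was 694 bp away at REB1, 1553 bp at MCM1, 3869 bp at ABF1, 4189 bp at SPT15, 5574 bp at RAP1, 5763 bp at CBF1 and 10950 bp at TBF1. The median over all ORFs was 4167 bp, so 4 of the 7 genes were farther from a summit than the median ORF. REB1 was nearer than most, with 17.4% of ORFs having a nearer summit, and TBF1 was in a wide gap of the peak list, with 83.0% of ORFs nearer. The distances of ABF1 (47.8%) and SPT15 (50.2%) were those of a typical ORF. All distances are those of the reference sequence, which lacks the tag that ABF1 carries in these cells.

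**Figure D4:**
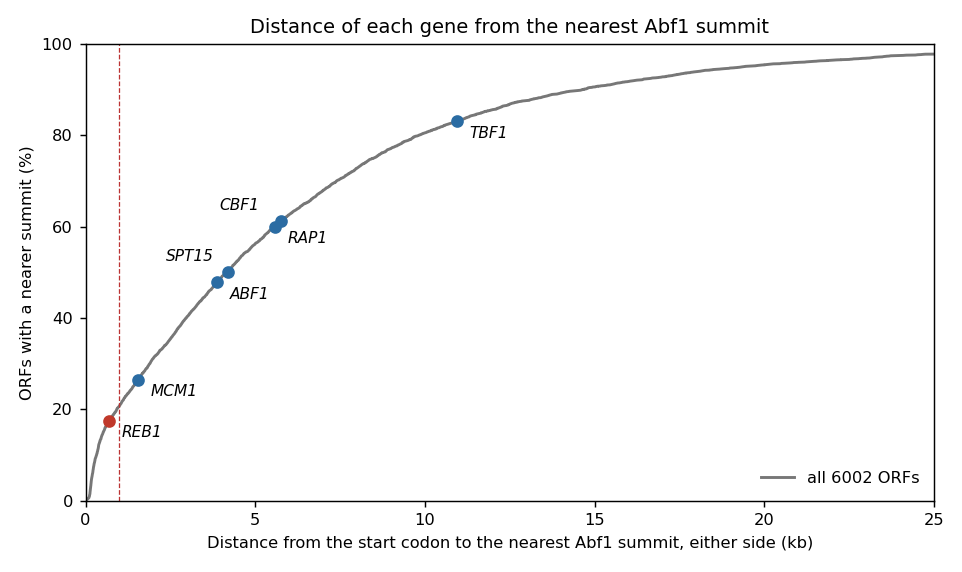
Share of all 6002 ORFs whose start codon is nearer to an Abf1 summit (y axis, %) against distance to the nearest summit on either side (x axis, kb). Points are the 7 genes, REB1 in red, and the dashed line is 1 kb; REB1, at 694 bp, is to the left of it, and the genes range up to TBF1 at 10950 bp.

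The peak just outside the limit of 1000 bp was that of MCM1. Its summit, 1553 bp upstream of the start codon, was inside a tRNA gene and had a fold enrichment of 2.26 (2.03 to 2.51) from 345 fragments, rank 853, with no consensus match. By the same rule the peak went to ARA2 and to ARG80, whose start codon is 285 bp away. Downstream of MCM1 the nearest summit was 8378 bp beyond the stop codon, also inside a tRNA gene, with a fold enrichment of 2.75. MCM1 was thus flanked on each side by a weak tRNA gene peak.

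Near ABF1 the summits were weak as well. The nearest, 1674 bp beyond the stop codon, was upstream of KTI12 and had a fold enrichment of 2.11 from 289 fragments, rank 905, with no consensus match. On the upstream side the nearest was 6656 bp from the start codon, inside a tRNA gene, at 2.56. Both neighbours of ABF1 were thus in the lowest part of the list.

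SPT15 had its nearest summit 3467 bp beyond the stop codon, inside a tRNA gene, at a fold enrichment of 2.56 (2.31 to 2.84). On the upstream side the nearest summit was 23081 bp away, at 4.53. RAP1 had a summit 3091 bp beyond the stop codon at 3.49 (3.19 to 3.82), with 1 consensus match, and its nearest summit upstream, 24084 bp away inside ELA1, was the strongest of these neighbours at 12.3 (11.7 to 12.9). CBF1 lay between a summit in the tRNA gene SUP4, 5763 bp upstream, at 2.83, and one 5250 bp beyond its stop codon at 3.25. TBF1 had its neighbours 9262 bp beyond the stop codon, at 4.21, and 30674 bp upstream in the tRNA gene IMT2, at 4.31. The neighbours with a fold enrichment of 4 or more were those of TBF1 on both sides and of RAP1 and SPT15 upstream, each far outside the reach of the rule.

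The genes were also searched for each other's motifs in the 1000 bp upstream of the start codon, on both strands. CACGTG, the Cbf1 motif, was found at 10.8% of all 5996 upstream regions and at 3 of the 7 genes, RAP1, REB1 and CBF1 itself. REB1 was the richest, with CACGTG at 42 to 37 bp and at 293 to 288 bp upstream, TTACCCG, the Reb1 motif, at 268 to 262 bp on the minus strand, and the Rap1 motif ACCCNNACA at 208 to 200 bp on the minus strand. TTACCCG occurred at 13.5% and ACCCNNACA at 9.67% of upstream regions, and neither was found at another of the 7 genes. ACCCTAA, the Tbf1 motif, was at 7.12% of upstream regions and at none of the 7. The Mcm1 motif, searched as AATT flanked at a distance of 1 base by CC and by GG, was at 1.50% and at none of the 7. TATAAA was upstream of all 7 genes and of 77.2% of all ORFs, so it sets these genes apart from few others. The Abf1 summit at REB1, 694 bp upstream, is well away from the other motifs of this promoter, which are printed with 10 flanking bases and the motif in capitals.
REB1, Cbf1 motif 42 bp upstream, plus strand: tcagcagcaaCACGTGagttcaaact
REB1, Rap1 motif 208 bp upstream, minus strand: caagggacctACCCTCACAaaggacaacg
REB1, Reb1 motif 268 bp upstream, minus strand: aacaactttgTTACCCGtctttcaaat
REB1, Cbf1 motif 293 bp upstream, plus strand: tgctatatatCACGTGatcaattttt
RAP1, Cbf1 motif 622 bp upstream, plus strand: tcaaaaacatCACGTGaaaaggaaaa
CBF1, Cbf1 motif 168 bp upstream, plus strand: aacaattatcCACGTGcttatcacgt

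For comparison, 62 genes of proteins that work with these factors were read by the same rule. Of these, 17 had a peak (27.4%) and 9 a peak with a fold enrichment of 4 or more, where 19.4% and 9.88% of all ORFs did. The highest fold enrichment per gene had a median of 4.15 over the ORFs with a peak. The lists are short and were drawn up with earlier results of these data known. No count among them was tested, and none is read as a difference from other ORFs.

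Of 10 genes of Rap1 partners 4 had a peak, and the median of their highest fold enrichments was 10.7. SFP1, an activator of ribosome biogenesis genes, had the strongest at 18.4 (17.7 to 19.1), 746 bp upstream and without a consensus match. FHL1, a forkhead-type factor of ribosomal protein genes, had 14.1 (13.5 to 14.7) at 401 bp upstream. RIF2, which limits telomere length together with Rap1, had 7.18 (6.74 to 7.64) at 746 bp and a second summit of 3.32 at 458 bp. The peak of GCR1, an activator of glycolytic genes, was at 3.07 close to that of REB1.

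Of 22 genes of proteins that meet TBP at RNA polymerase II promoters 8 had a peak, although SPT15 had none, and the median of the highest fold enrichments was 4.29. SPT8, a TBP-binding subunit of the SAGA coactivator, had 18.4 (17.7 to 19.2) at 226 bp upstream with 2 consensus matches. TAF11, a TFIID subunit, had 30.1 (29.2 to 31.0) at 989 bp upstream, inside the ORF of TRM9 and without a consensus match. BUR6, a subunit of the TBP repressor NC2, had 7.19 (6.73 to 7.67) at 387 bp, and the TFIID subunit genes TAF4 and TAF9 had 4.43 (4.11 to 4.78) at 173 bp and 4.15 (3.81 to 4.50) at 103 bp. NCB2, TAF5 and TAF12 were between 2.76 and 3.23. None of the 6 genes of TBP partners at RNA polymerase I and III promoters had a peak.

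Of 10 genes of Cbf1 partners and related helix-loop-helix factors 2 had a peak. PHO4, the phosphate response factor, had 21.0 (20.2 to 21.8) inside its own ORF, at position 702, with 3 consensus matches, and a second summit of 3.58 in a tRNA gene upstream. TYE7, an activator of glycolytic genes, had 3.64. Of 10 genes of Mcm1 partners and MADS-box factors 2 had a peak, YOX1 at 2.22 and ARG80 at 2.26, and of 4 genes grouped with Tbf1 and Reb1 VID22 had one at 3.65. Peaks at the partner genes thus ran from 2.22 at rank 868 to 30.1 at rank 57. The REB1 peak was in the lower part of the list, as the plot of fold enrichment by rank shows.

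The best consensus matches under the strongest of these peaks with a match are printed next, on the strand that matches, to set beside the match of the ABF1 promoter, which had no listed summit and scored 0.934. Their scores were 0.926 for PHO4, 0.948 for SPT8, 0.951 for FHL1, 0.966 for RIF2 and 0.939 for BUR6. The ABF1 promoter match was thus within the range of scores under these peaks, above that of PHO4 and below the other 4. At the base 8 bp before the midpoint FHL1 has C, PHO4 and SPT8 have T, and RIF2 and BUR6 have A, as ABF1 does. By the study's statement only the FHL1 match has a base there that cross-links efficiently. These peaks are among those from which the matrix was built, so the comparison describes the scores and tests nothing. Each printed match is the best-scoring within 100 bp of its summit, and not always the nearest to it. Some lie well off the summit. The PHO4 match was 42 bp away, and that of BUR6, the only match in its window, 84 bp. The SPT8 match has its midpoint at 253242, where the summit is at 253306. Whether these matches account for the peaks was not tested.
PHO4: gcttGTCATCGTCCACGagcg
SPT8: tattGTCACTCTGTACGtagg
FHL1: tactATCATTCTGAACGttgc
RIF2: atatATCACGTTACACGggaa
BUR6: gaatGTCATAATTCACGaaca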

How the data were processed

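Paired-end reads of the 3 Abf1 immunoprecipitations at 0 min and their inputs were aligned by the authors to sacCer3 with HISAT2 2.0.5, reduced to fragments with unique molecular identifiers and unique mapping, pooled, and passed to MACS2 2.1.1.20160309 with separate summits and with limits of 0.001 for q and 2 for fold enrichment. The submitters' notes also name bedtools 2.27. The deposited list gives per summit the fold enrichment (a ratio of pileup to background, each plus 1), the −log10 p-value, the −log10 q-value and a score that the authors' caller derives from q. The score was not used, and the deposited summit positions were the same in both files for all 948 summits. Unique mapping can lower signal in repeats, and pooling removes the replicate spread. Reads per library were not analysed here.

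The fragment pileup was computed back from enrichment and −log10 p-value, and was within 0.01 of a whole number for 941 summits. ORFs, start to stop codon, and sequences came from R64, where all 7 genes and the 62 partner genes were found by symbol. Motif matches counted within 100 bp of a summit, on both strands. The matrix used a total pseudocount of 0.8 per position. The text names all 7 genes with every peak they take and their nearest summits. It also names each partner gene with a fold enrichment of 4 or more, and the ORF that shares the REB1 peak. Other ORFs that share the peak of a partner gene are not named throughout. The genes, lists and rules were chosen with earlier results of these data known. Match classes, matrix counts per upstream region, uniqueness and overlapping pairs were added after seeing the data. Alternatives covered fold enrichment, q-value, upstream limit, assignment, summits per interval, window and motif. The functions were tested on simulated data. Versions were matplotlib 3.10.9, scipy 1.17.1, pandas 2.3.3, numpy 2.4.6 and Python 3.11.15.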

Additional observations from a re-analysis of the deposited data

How the results depend on the processing

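The count of 1 gene and 1 peak, with a fold enrichment of 3.02, stayed as it was with a −log10 q-value of at least 50, an upstream limit of 1500 bp, the upstream region alone, any overlap of the peak interval, and the highest summit of each interval. It fell to 0 genes and 0 peaks with a fold enrichment minimum of 4 or an upstream limit of 500 bp, by construction, since the REB1 summit was 694 bp upstream at 3.02. Neither setting leaves a fold enrichment to give. The count of partner genes with a peak, 17, was 9 with the minimum of 4, 13 with 500 bp and 16 with the upstream region alone. The REB1 peak kept its motif match with a window of 50 bp, the whole interval, 1 mismatch, the shortened consensus and the matrix at 80% and 85%, and had 0 matches with the matrix at 90%, its best score being 0.894. Among matches scoring 0.925 to 0.95, 53.3% had a summit within 100 bp, 49.3% within 50 bp and 56.2% within 200 bp, and 58.4% did outside ORFs, alternatives chosen after seeing the data. No paired analysis was possible because the peak list used here holds 1 pooled value per summit and no columns by replicate, so no replicate was left out either. Coverage of the single samples was not analysed here. The fold enrichment limit of 2, which about 282 fragments reach at the median background, sets the lower end of the list rather than depth: the summit nearest to ABF1, at 2.11, had a −log10 q-value of 28.2.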

Other observations

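The summits next to the 7 genes, 1 on each side of every start codon, were 14 in all. Of these, 7 were in tRNA genes, where 231 of the 948 summits of the list (24.4%) were. The share among the nearest summits of all ORFs was not computed, so the count is not read as a trait of these genes. Summits in tRNA genes had a fold enrichment of 2.03 to 9.79 with a median of 2.95, and 10 of the 231 had a consensus match. Of the 14 neighbouring summits 10 were under a fold enrichment of 4, where 527 of the 948 were. A consensus match was near 4 of the 14, that of the REB1 peak included, where 558 of the 948 had one. The untagged strain was not analysed here. The part of signal at tRNA genes and inside ORFs that does not depend on the tag was therefore not tested.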
